A study of Homo sapiens with 8 samples.

Results

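The matrix metalloproteinases (MMP), the ADAM and ADAMTS metalloproteases and their TIMP inhibitors were examined in SKOV3, a widely used cell line from a human ovarian adenocarcinoma. Genes were taken by name, as an MMP, ADAM or ADAMTS symbol followed by its number, or as TIMP1 to TIMP4. This gave 66 of the 22554 features in the gene tables, made up of 23 MMP, 20 ADAM, 19 ADAMTS and 4 TIMP genes. Poly(A) RNA, from a stranded mRNA kit, was sequenced from 8 samples of this single line. The LDL group (4 samples) was exposed for 48 h to low-density lipoprotein, the main cholesterol carrier of blood, at a dose of 50 µg/mL. The control group (4 samples) had plain medium. All 8 grew in McCoy's 5A medium with fetal bovine serum. The labels do not say where the LDL came from, nor whether samples of one group came from different cultures. All p-values below thus reflect only sample-to-sample spread, possibly technical. The series title links LDL to metastasis, and these proteases are among the enzymes by which cells cut the matrix and shed surface proteins.

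MMPs are zinc enzymes made as inactive precursors, either secreted or tied to the membrane, and they cut collagens and other matrix proteins. ADAMs are membrane proteins that cut the outer part off other membrane proteins, such as Notch receptors and precursors of epidermal growth factor family ligands. ADAMTS enzymes are secreted and act on proteoglycans, procollagens and a few plasma proteins, and TIMPs bind the active site of these enzymes. Messenger RNA gives the supply of precursor and not the active enzyme.

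Total counts ran from 34682501 to 36780334 in LDL samples and from 37189698 to 44883561 in control samples, so depth did not overlap between the groups. ERBB2, which is amplified in this line, and the epithelial keratins KRT8, KRT18 and KRT19 were high in all samples. The epithelial marker EPCAM was much lower, at 22.3 to 30 CPM (counts scaled to library size) in LDL and 20.5 to 22.9 CPM in control samples. These 5 genes summed to 5216 to 5865 CPM in LDL and 5063 to 5495 CPM in control samples, most of it from ERBB2 and KRT8. The tumour suppressor CDKN2A, deleted in SKOV3, had a count of 0 in all 8 libraries. The 4 leukocyte markers summed to 48.55 to 52.77 CPM in LDL and 38.22 to 49.09 CPM in control samples, nearly all of it CD68, a lysosomal protein of macrophages (edgeR adjusted p = 0.849). PTPRC, the marker shared by leukocytes, had a count of 0 in all 8 libraries, and CD14 and CD3E were below 0.6 CPM in each. The 4 endothelial markers summed to 2.615 to 4.909 CPM in LDL and 3.793 to 4.65 CPM in control samples. Of the 6 fibroblast markers, COL1A1 was the most abundant and was expressed throughout. Their summed level ran from 171.1 to 443.3 CPM in LDL and from 384.3 to 404.6 CPM in control samples, and the lowest value was that of LDL sample 4.

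SKOV3 cells expressed 43 of the 66 genes by the default count filter of edgeR, which was 65.2% of them, against 68.4% of all features. Within the families this was 15 of 23 MMP, 12 of 20 ADAM, 13 of 19 ADAMTS and 3 of 4 TIMP genes. A mean FPKM (a fragment level scaled to both gene length and library size) of at least 1 was reached by 24 of the 66, or 36.4%, against 54.3% of all features. A count of 0 in all 8 libraries was found for 9 genes: MMP8, MMP20, MMP26, MMP27, ADAM7, ADAM18, ADAM30, ADAM33 and ADAMTS19. With counting error alone, a count of 0 leaves room for 3 counts, which is 0.0668 to 0.0865 CPM across the libraries. Another 14 genes had some counts but too few for the test.

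The inhibitors TIMP2 and TIMP1 led the set. On the FPKM scale TIMP2 stood at 260 ± 22.4 in LDL and 278 ± 8.15 in control samples (SD, n = 4 each), and TIMP1 at 234 ± 18.2 in LDL and 215 ± 7.99 in control samples (SD, n = 4 each). These 2 genes made up 99.9% of the summed TIMP FPKM in both groups. TIMP3, the matrix-bound inhibitor that also acts on ADAM17, was at 0.473 ± 0.0567 FPKM in LDL and 0.553 ± 0.182 FPKM in control samples (SD, n = 4 each). TIMP4 had 0 counts in the 4 LDL libraries and 5 counts in the 4 control libraries, all of them in control sample 4.

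Among the MMPs, the interstitial collagenase MMP1 and the matrilysin MMP7 carried most of the transcript. MMP1 stood at 176 ± 31.9 FPKM in LDL and 139 ± 18.7 FPKM in control samples (SD, n = 4 each). MMP7 stood at 130 ± 64.6 FPKM in LDL and 139 ± 27.7 FPKM in control samples (SD, n = 4 each). Together they gave 76.6% ± 2.58 of the summed MMP FPKM in LDL and 75.8% ± 2.27 in control samples (SD, n = 4 each). The gelatinase MMP2 followed at 49.7 ± 4.72 FPKM in LDL and 48.1 ± 2.53 FPKM in control samples (SD, n = 4 each). The other gelatinase, MMP9, was far lower at 0.212 ± 0.0641 FPKM in LDL and 0.207 ± 0.0593 FPKM in control samples (SD, n = 4 each), and rested on 74 and 85 counts over the 4 libraries of each group.

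All 6 membrane-type MMPs were expressed, at low to moderate levels. MMP15 had 7.8 ± 1.29 FPKM in LDL and 8.06 ± 0.419 FPKM in control samples, and MMP24 had 6.1 ± 0.57 FPKM in LDL and 7.25 ± 0.604 FPKM in control samples (SD, n = 4 each). MMP14, the membrane enzyme that activates the MMP2 precursor with the help of TIMP2, was lower, at 1.85 ± 0.388 FPKM in LDL and 1.34 ± 0.251 FPKM in control samples (SD, n = 4 each). MMP16, MMP25 and MMP17 were below a mean of 1 FPKM in both groups.

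Of the ADAM genes, ADAM9, ADAM15, ADAM10, ADAM19 and ADAM17 were the highest, in that order by mean FPKM. ADAM9 stood at 60.6 ± 3.17 FPKM in LDL and 61.3 ± 6.57 FPKM in control samples (SD, n = 4 each). ADAM15 had 28.2 ± 1.64 FPKM in LDL and 27 ± 1.63 FPKM in control samples (SD, n = 4 each). ADAM10, which sheds Notch receptors and E-cadherin, had 16.4 ± 1.1 FPKM in LDL and 17.1 ± 1.2 FPKM in control samples (SD, n = 4 each). ADAM19 had 12.7 ± 1.54 FPKM in LDL and 12.8 ± 0.417 FPKM in control samples (SD, n = 4 each). ADAM17, the TNF-converting enzyme, had 8.83 ± 0.838 FPKM in LDL and 8.94 ± 0.478 FPKM in control samples (SD, n = 4 each). ADAM23, ADAM11 and ADAM22, which lack catalytic activity and act as adhesion receptors in the nervous system, were also expressed, ADAM23 the most at 2.99 ± 0.365 FPKM in LDL and 3.36 ± 0.308 FPKM in control samples (SD, n = 4 each).

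The ADAMTS genes were led by those for proteoglycan-cutting enzymes. ADAMTS1 stood at 14.6 ± 0.537 FPKM in LDL and 15 ± 1.55 FPKM in control samples (SD, n = 4 each). The group means of ADAMTS15, ADAMTS9 and ADAMTS5 lay between 4.6 and 5.63 FPKM. ADAMTS4, another aggrecanase, had 15 counts in the 4 LDL libraries and 37 counts in the 4 control libraries and did not pass the filter. All 3 procollagen N-propeptidase genes were expressed at low levels. ADAMTS2 had 1.24 ± 0.309 FPKM in LDL and 1.42 ± 0.207 FPKM in control samples (SD, n = 4 each). The group means of ADAMTS14 and ADAMTS3 were below 0.5 FPKM.

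**Figure D1:**
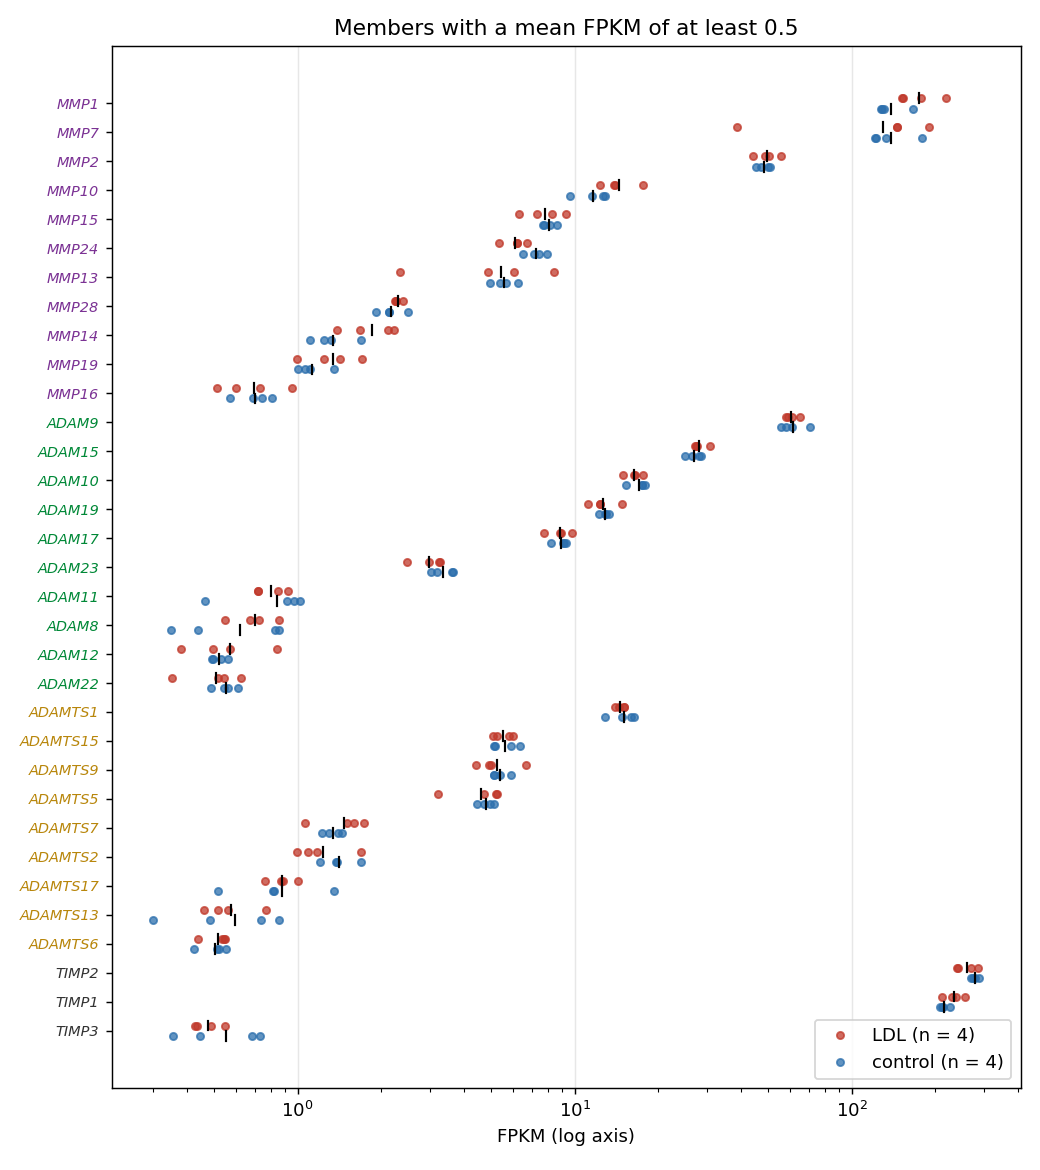
FPKM on a log axis for the genes with a mean of at least 0.5 FPKM, grouped by family with MMP at the top and TIMP at the bottom. Points are samples, LDL above control for each gene, and black ticks are group means. TIMP2 and TIMP1 are the highest, and the single MMP7 and MMP13 points far to the left are LDL sample 4.

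The test of LDL against control found no gene of the set changed. In edgeR's quasi-likelihood test, adjusted over all 15432 features by the Benjamini-Hochberg method, 0 of 43 tested genes passed 0.05, where 0.0648% of all features did (10 in number, 0.0259% higher and 0.0389% lower with LDL). At an unadjusted p under 0.05 there were 3 of 43, MMP24, MMP10 and ADAMTS3, or 6.98%, against 5.59% of all features. MMP10 and ADAMTS3 were the 2 on the higher side (2.88% of all features), and MMP24 the 1 on the lower side (2.72%). In no tested gene were the CPM of the groups free of overlap, against 3.45% of all features. DESeq2 called 0 of the 40 genes to which it gave an adjusted p, against 0.32% of all features. Of the 57 genes of the set that DESeq2 fitted, 4 had an unadjusted p under 0.05, namely MMP24, MMP10, MMP1 and TIMP2. The share of all features with such a p in DESeq2 was not computed, so this count cannot be set against a background.

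The log2 fold changes (LDL over control) lay above 0 in 18 of the 43 genes (41.9%, against 52.3% of all features). Their median was -0.030 on the log2 scale, beside 0.0060 over all features tested. The family medians were 0.039 for 15 MMP, -0.069 for 12 ADAM, -0.036 for 13 ADAMTS and -0.11 for 3 TIMP genes. The 95% interval of the fold change stayed within 1.5-fold in either direction for 24 of 43 genes (55.8%, against 76.3% of all features) and within 2-fold for 35 of 43 (81.4%, against 87.5%). For the other 8 genes a 2-fold change in at least 1 direction was within the interval, so these data do not bound their change to less than that. They were MMP7, MMP11, MMP17, ADAM28, ADAM32, ADAMTS3, ADAMTS10 and ADAMTS16.

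**Figure D2:**
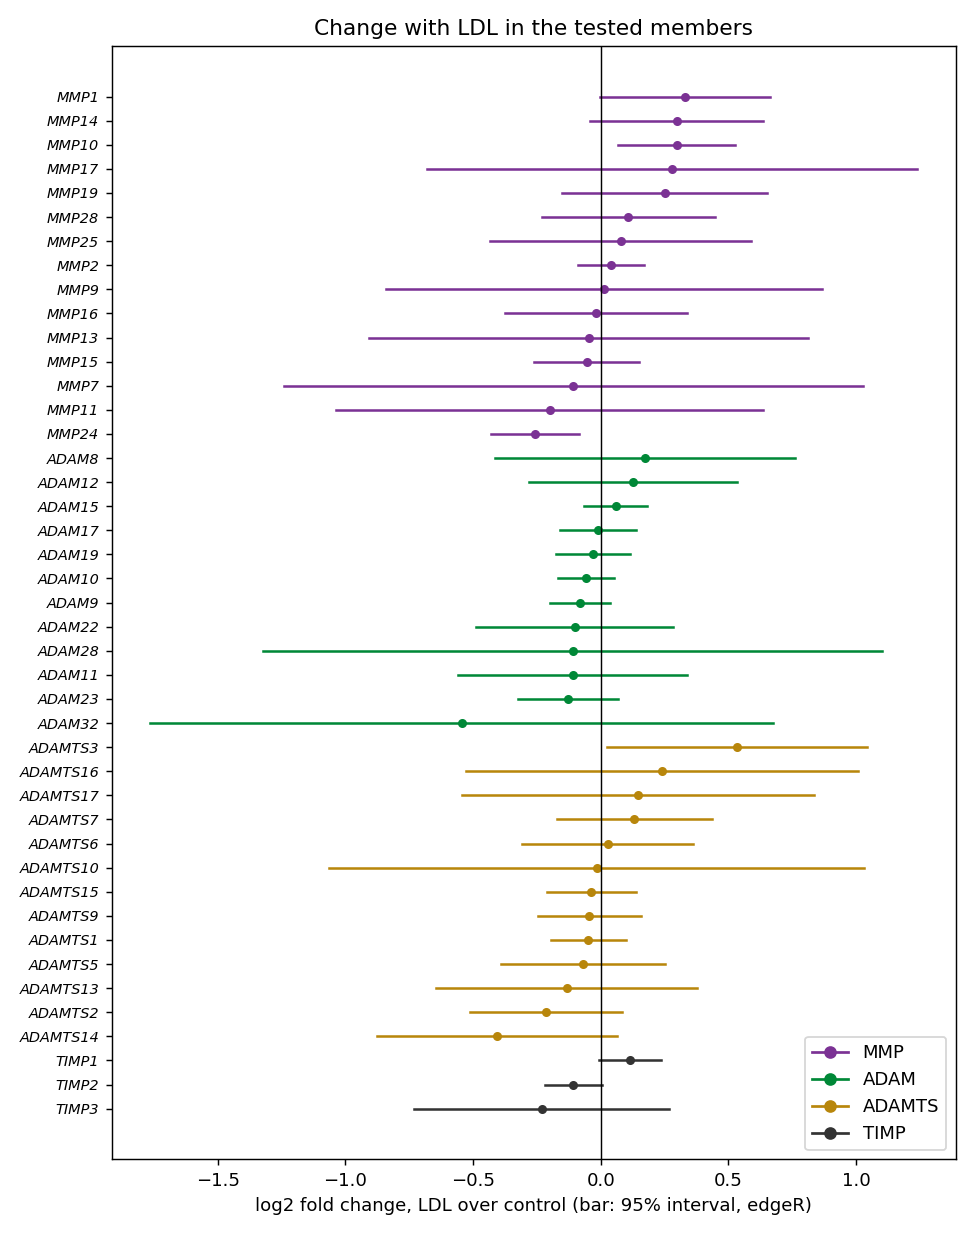
Log2 fold change, LDL over control, of the 43 tested genes by family, with bars for the 95% interval from edgeR. Intervals are narrow for abundant genes such as ADAM10 and wide for MMP7, MMP13 and genes with few counts such as ADAM32.

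The lowest p in the set belonged to MMP24, a membrane-type MMP known from neurons, where it cuts N-cadherin. Its gene occupies bases 35226654 to 35277000 of chromosome 20 (GRCh38, plus strand). MMP24 had 30.2, 28.5, 28.6 and 24.5 CPM in LDL samples 1 to 4 and 32.4, 30, 34.7 and 36.5 CPM in control samples 1 to 4. LDL sample 1 reached just above control sample 2, and the other LDL samples lay below all controls. The log2 fold change was -0.26 (SE 0.0817, 0.837 of control, edgeR adjusted p = 0.675), and the exact two-sided permutation p was 0.0571, where 4 against 4 samples cannot go below 0.0286. MMP24OS, a protein-coding gene on the opposite strand, overlaps MMP24 and stood at 38, 41.9, 46.3 and 47.5 CPM in LDL samples and 39.1, 37.6, 42.2 and 43.6 CPM in control samples (edgeR adjusted p = 0.916). The library kit keeps the strand, but no source used here says whether counting used it. Reads of these overlapping genes may therefore be mixed.

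MMP10, a stromelysin that can activate other MMP precursors, had 31.8, 22.8, 25.8 and 25.8 CPM in LDL samples 1 to 4 and 21.2, 23.8, 18 and 23.5 CPM in control samples 1 to 4. Only LDL sample 2 fell within the control range. The log2 fold change was 0.30 (SE 0.108, 1.23-fold, edgeR adjusted p = 0.822; exact two-sided permutation p = 0.0857). MMP1 had 445, 319, 315 and 367 CPM in LDL samples 1 to 4 and 264, 345, 268 and 272 CPM in control samples 1 to 4. Control sample 2 lay above LDL samples 2 and 3, so the groups overlapped, while LDL sample 1 was the highest of the 8. The log2 fold change of MMP1 was 0.33 (SE 0.141, 95% interval -0.0015 to 0.66, edgeR adjusted p = 0.879; exact two-sided permutation p = 0.0857). Without LDL sample 1 it was 0.22 (edgeR adjusted p = 0.474), and without control sample 2 it was 0.43 (edgeR adjusted p = 0.756).

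ADAMTS3, which trims procollagen and is known to activate the lymphatic growth factor VEGFC, had 2.03, 2.47, 2.68 and 3.36 CPM in LDL samples 1 to 4 and 1.48, 2.48, 1.96 and 1.37 CPM in control samples 1 to 4. Control sample 2 lay above LDL samples 1 and 2, so the groups overlapped. The log2 fold change was 0.53 (SE 0.242, 1.45-fold, edgeR adjusted p = 0.878), on 61 to 117 counts per library. Its relative ADAMTS14 stood at 2.02 ± 0.183 CPM in LDL and 2.68 ± 0.659 CPM in control samples (SD, n = 4 each; log2 fold change -0.41, edgeR adjusted p = 0.882). MMP14 had 5.92, 7.03, 6.49 and 4.82 CPM in LDL samples 1 to 4 and 4.82, 6.14, 4.6 and 4.2 CPM in control samples 1 to 4, a log2 fold change of 0.30 (SE 0.16, edgeR adjusted p = 0.882). Control sample 2 was within the LDL range, and LDL sample 4 was level with control sample 1.

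Neither abundant inhibitor passed the test, and their fold changes had opposite signs. TIMP1, on the X chromosome inside the SYN1 gene of the other strand (1.21 to 1.66 CPM in all samples), had 171, 197, 193 and 211 CPM in LDL samples 1 to 4 and 177, 175, 174 and 187 CPM in control samples 1 to 4. LDL sample 1 was the lowest of the 8 and the other LDL samples were the 3 highest. The log2 fold change was 0.11 (SE 0.0578, 95% interval -0.0073 to 0.24, edgeR adjusted p = 0.879). TIMP2 had 1070, 921, 932 and 1031 CPM in LDL samples 1 to 4 and 1038, 1036, 1080 and 1104 CPM in control samples 1 to 4. LDL samples 2 and 3 lay below all controls, LDL sample 4 just below them and LDL sample 1 within them, with a log2 fold change of -0.11 (SE 0.0526, 95% interval -0.22 to 0.0038, edgeR adjusted p = 0.879). Without LDL sample 1, the edgeR adjusted p was 0.0876 for TIMP1, 0.0912 for MMP24 and 0.129 for TIMP2. All 3 stayed above 0.05, although that fit called 149 features.

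**Figure D3:**
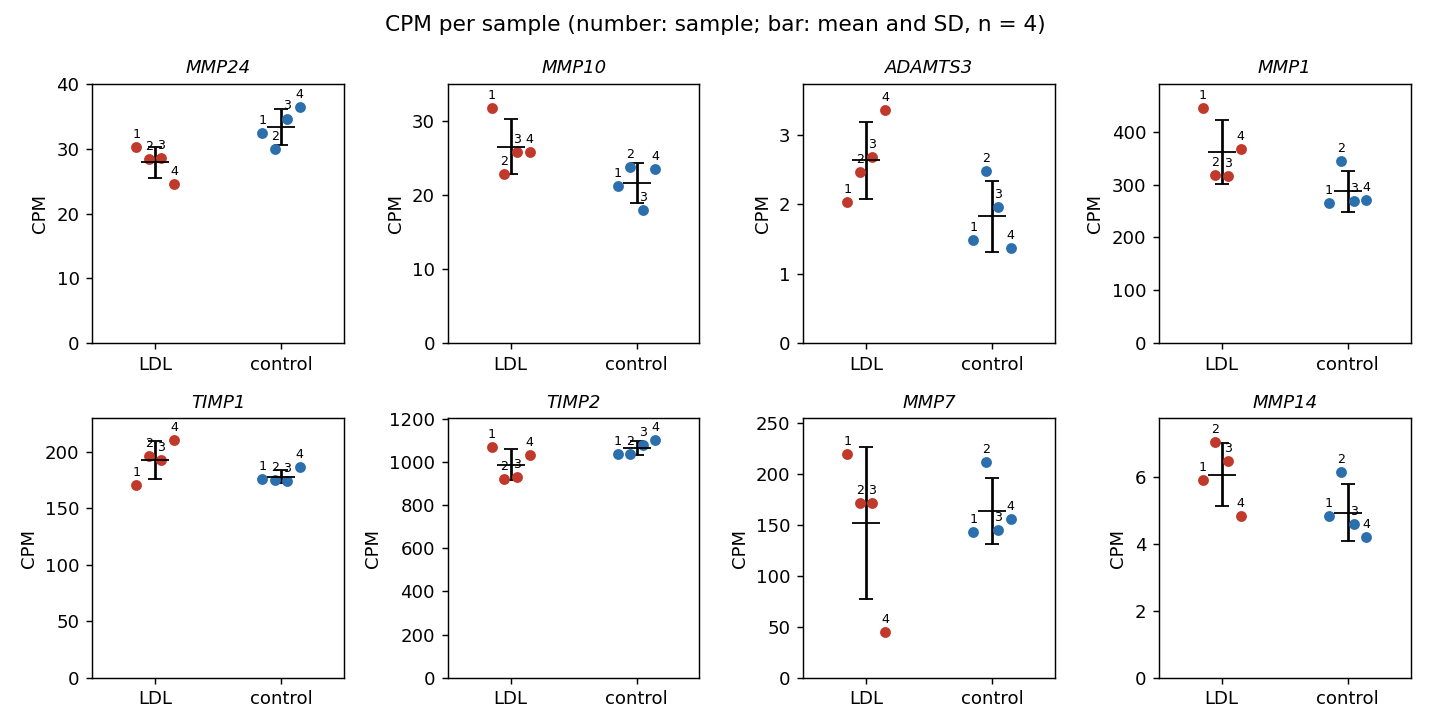
CPM per sample for 8 genes, LDL left of control. Digits give the sample number, and the horizontal line and bar are the mean and SD of 4 samples. LDL sample 1 is the nearest of its group to the controls in MMP24 and TIMP2, and LDL sample 4 has the lowest MMP7 of the 8 at 45.3 CPM.

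The less abundant genes gave wider intervals and no call. MMP19 had a log2 fold change of 0.25 (95% interval -0.15 to 0.65, edgeR adjusted p = 0.905), and MMP28, an MMP of epithelia, one of 0.11 (95% interval -0.23 to 0.45, edgeR adjusted p = 0.954). MMP28 overlaps the more abundant TAF15 on the opposite strand. ADAM12 and ADAM8, both able to cut membrane proteins, had group means near 0.5 to 0.7 FPKM. Their log2 fold changes were 0.13 (edgeR adjusted p = 0.954) and 0.17 (edgeR adjusted p = 0.957). The more abundant ADAM19 had a log2 fold change of -0.03 (95% interval -0.17 to 0.11, edgeR adjusted p = 0.972). ADAMTS13, which cuts von Willebrand factor, and ADAMTS7, which cuts the cartilage protein COMP, had log2 fold changes of -0.13 (edgeR adjusted p = 0.961) and 0.13 (edgeR adjusted p = 0.94). Both overlap a far more abundant gene on the opposite strand, REXO4 and MORF4L1.

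For the main shedding enzymes the intervals were tight. The log2 fold change was -0.057 for ADAM10 (95% interval -0.17 to 0.052, edgeR adjusted p = 0.93) and -0.012 for ADAM17 (95% interval -0.16 to 0.14, edgeR adjusted p = 0.993). It was -0.08 for ADAM9 (95% interval -0.20 to 0.037, edgeR adjusted p = 0.884) and 0.059 for ADAM15 (95% interval -0.064 to 0.18, edgeR adjusted p = 0.932). ADAM17 overlaps IAH1 on the opposite strand, which stood between 34.1 and 38.4 CPM in LDL samples and between 32.1 and 36.7 CPM in control samples. MMP2 was at 0.039 (95% interval -0.091 to 0.17, edgeR adjusted p = 0.956) and ADAMTS1 at -0.049 (95% interval -0.20 to 0.098, edgeR adjusted p = 0.954). All of these intervals exclude a 1.5-fold change in either direction.

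MMP1 and MMP7 sit in a cluster of secreted MMPs on chromosome 11, from 102520508 to 102955734 on GRCh38, which holds 9 genes of the set. MMP2, also secreted and abundant, lies on chromosome 16. Of these MMP7, MMP10, MMP1 and MMP13 were tested, MMP3 and MMP12 had at most 16 counts in any library, and MMP8, MMP20 and MMP27 had none. All 9 lie on the minus strand. MMP7 had 219, 172, 172 and 45.3 CPM in LDL samples 1 to 4 and 143, 212, 145 and 156 CPM in control samples 1 to 4. LDL sample 4 stood far below the other 7, at 0.264 of their median of 171.8 CPM, which ranked 36 from the lowest among such ratios of 13637 features with a mean of at least 1 CPM. The collagenase MMP13 had 23.6, 13.9, 17.3 and 6.69 CPM in LDL samples 1 to 4 and 14, 17.7, 16.4 and 15.4 CPM in control samples 1 to 4. There LDL sample 4 was at 0.408 of the median of the other 7.

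The neighbours MMP1 and MMP10 did not share this drop. In LDL sample 4 they stood at 1.16 and 1.1 times the median of the other 7 samples. LDL sample 1, in contrast, was the highest of the 8 for all 4 genes, at 1.34 to 1.55 times the control mean. Of the 6 fibroblast markers, the collagen genes COL1A1, COL1A2 and COL3A1 were also low in LDL sample 4, at 0.4, 0.517 and 0.587 of the median of the other 7. PDGFRB was lowest there too, at 0.373 CPM in LDL sample 4, 0.606 to 1.02 CPM in the other LDL samples and 0.718 to 1.07 CPM in control samples. The other two were not low in LDL sample 4. LUM was at 4.74 CPM there, 3.81 to 4.41 CPM in the other LDL samples and 3.79 to 4.97 CPM in control samples. PDGFRA was at 1.09 CPM there, 0.811 to 1.36 CPM in the other LDL samples and 0.696 to 1.72 CPM in control samples. None of the 6 passed the edgeR test between groups. Low values in LDL sample 4 were not confined to these markers. FOS was at 6.37 CPM there, 16.9 to 22.3 CPM in the other LDL samples and 13.2 to 23.1 CPM in control samples. JUNB was at 136 CPM there, 234 to 272 CPM in the other LDL samples and 217 to 239 CPM in control samples. TNF was also lowest there, at 18.4 CPM. FOSL1 and ETV4 were instead the highest of the 8 there, at 226 and 30.3 CPM. The part of any of these levels in the MMP7 and MMP13 values was not tested. In a bulk sample, fewer cells that express a gene and less RNA per cell cannot be told apart.

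The sign of the group difference in these genes depended on single libraries. With all samples MMP7 had a log2 fold change of -0.11 (SE 0.466, 95% interval -1.24 to 1.02, edgeR adjusted p = 0.988) and MMP13 of -0.047 (SE 0.357, edgeR adjusted p = 0.993). Without LDL sample 4 they were 0.20 and 0.20, with an edgeR adjusted p of 0.98 for each. Without control sample 2 they were 0.040 (edgeR adjusted p = 0.996) and 0.011 (edgeR adjusted p = 0.998). Over the whole set, LDL sample 4 was the lowest of the 8 in 14 of 43 genes (32.6%, against 19.8% of all features), and LDL sample 1 the highest in 14 of 43 (32.6%, against 16.1%). Whether these shares differ from those of all features was not tested.

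**Figure D4:**
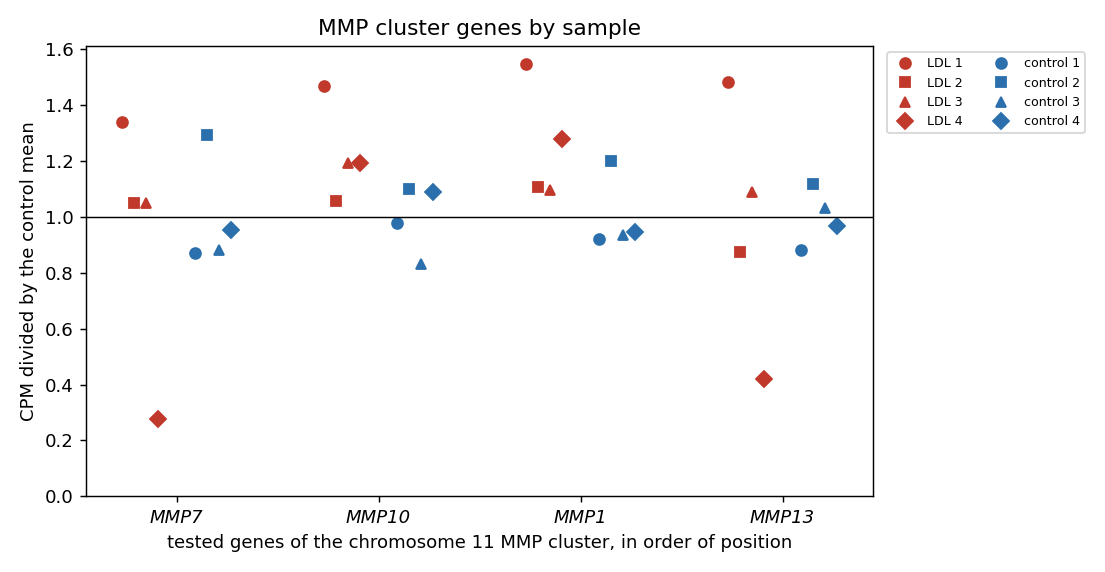
CPM divided by the control mean for the 4 tested genes of the chromosome 11 cluster, in order of position, with a symbol per sample. LDL sample 1 is the highest point for each gene, and LDL sample 4 is low for MMP7 and MMP13, at 0.276 and 0.421, but not for MMP10 and MMP1.

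The upstream sequences of MMP7 and MMP10 are shown because these cluster neighbours differed in LDL sample 4, and that of MMP24 because it had the lowest p of the set. Each runs over the 250 bases before the RefSeq start of the gene, 5′ to 3′ on the gene's own strand, on GRCh38.p14. GENCODE, the source of the gene coordinates given above, places the start further upstream for MMP24 (35226654) and MMP7 (102530753). The windows of MMP24 and MMP7 thus end inside the GENCODE gene. They cover chr11:102530748-102530997 for MMP7 and chr11:102780629-102780878 for MMP10, both on the minus strand, and chr20:35226440-35226689 for MMP24 on the plus strand. Capitals mark matches on either strand to TGACTCA (the AP-1 element), TATAAA (the TATA box) and AGGAAG (an ETS factor element).
MMP7: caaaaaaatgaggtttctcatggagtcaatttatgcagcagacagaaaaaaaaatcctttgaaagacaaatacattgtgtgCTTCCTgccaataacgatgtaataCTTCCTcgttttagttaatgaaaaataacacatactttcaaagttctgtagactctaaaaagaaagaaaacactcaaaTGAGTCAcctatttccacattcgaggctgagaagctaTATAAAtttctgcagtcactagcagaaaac
MMP10: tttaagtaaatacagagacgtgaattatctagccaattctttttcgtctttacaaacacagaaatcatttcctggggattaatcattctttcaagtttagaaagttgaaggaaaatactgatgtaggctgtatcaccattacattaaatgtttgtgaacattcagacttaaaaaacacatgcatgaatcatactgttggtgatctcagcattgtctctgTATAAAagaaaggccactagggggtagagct
MMP24: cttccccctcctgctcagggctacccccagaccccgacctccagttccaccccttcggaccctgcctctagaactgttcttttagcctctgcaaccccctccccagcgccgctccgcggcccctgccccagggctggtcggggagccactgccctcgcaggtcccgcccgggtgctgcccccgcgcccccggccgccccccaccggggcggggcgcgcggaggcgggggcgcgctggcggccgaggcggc

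Positions are counted back from the RefSeq start. MMP7 held an AP-1 element at 67 to 61 bases, a TATA box at 30 to 25 bases and a pair of ETS elements at 169 to 164 and 145 to 140 bases. MMP10 held a TATA box at 31 to 26 bases and no other match, and MMP24 held none of these words in this window. RefSeq entries were matched for 39 of the 66 genes, with 40 start sites. The other genes of the set had no window and were not searched, so the shares below say nothing about their promoters. The AP-1 word was found in 1 of these 40 windows, that of MMP7, against 4.2% of all 35116 windows. The TATA word was in 7 of 40, against 10.7% of all, namely MMP7, MMP8, MMP10, MMP20, MMP21, MMP26 and ADAMTS10. The ETS word was in 9 of 40, among them ADAM10, ADAM17 and TIMP1, against 28.7% of all. The motifs do not overlap each other, and a match describes letters and not binding.

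Genes that act with these proteases were read from the same fit. No gene of the 7 lists was called. The convertases that cut the precursors open, FURIN, PCSK5, PCSK6 and PCSK7, were all tested and all below 0, with a median log2 fold change of -0.11. PCSK5 had the lowest p among them, at 67.3 ± 6.98 CPM in LDL and 76.1 ± 3.74 CPM in control samples (SD, n = 4 each; edgeR adjusted p = 0.833). Of 10 other inhibitors and cofactors 6 were tested, with a median of 0.083, 4 above 0 and 2 below. TFPI2, a serine protease inhibitor held in the matrix, had 246, 251, 251 and 290 CPM in LDL samples 1 to 4 and 222, 240, 224 and 218 CPM in control samples 1 to 4. All LDL samples lay above all controls, with a log2 fold change of 0.20 and an edgeR adjusted p of 0.488. Groups without overlap, in either direction, were found for 3.45% of all features. 

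The partners that carry ADAM10 and ADAM17 to the cell surface, the TspanC8 tetraspanins, iRhoms and FRMD8, were all 9 expressed. Their median log2 fold change was 0.0058, with TSPAN14 at -0.079 (edgeR adjusted p = 0.884). Among 18 tested substrates of shedding, 10 were above and 8 below 0 with a median of 0.035, and 4 had an unadjusted p under 0.05, where 52.3% of all features were above 0 and 5.59% had such a p. These were the ligand genes HBEGF, AREG and BTC with positive fold changes and the adhesion gene L1CAM with a negative one, the last 3 named after their values were seen. HBEGF, an EGF receptor ligand released by ADAM17, had 15.3, 15.1, 15.3 and 20.8 CPM in LDL samples 1 to 4 and 12.5, 12.9, 13 and 13.9 CPM in control samples 1 to 4. Its groups did not overlap (log2 fold change 0.35, SE 0.111, edgeR adjusted p = 0.675). Nor did those of CD44, named after its values were seen (log2 fold change 0.091, edgeR adjusted p = 0.879), against 3.45% of all features. Of 12 tested matrix substrates 4 were above and 8 below 0, with a median of -0.043 and TNC, which encodes tenascin-C, lowest in p (log2 fold change 0.21, edgeR adjusted p = 0.878). The 9 tested related proteases and ADAMTS-like genes had a median of -0.0099, and ADAMTSL3 had a log2 fold change of -0.15 (edgeR adjusted p = 0.883).

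Transcription factors known to act on MMP promoters were all 14 tested, 10 above and 4 below 0, with a median log2 fold change of 0.034. An unadjusted p under 0.05 was found for 3 of them, JUND, FOSB and ETV4, against 5.59% of all features. JUND, an AP-1 subunit, had 219, 227, 254 and 227 CPM in LDL samples 1 to 4 and 199, 207, 200 and 211 CPM in control samples 1 to 4. The groups did not overlap, as in 3.45% of all features, with a log2 fold change of 0.18 (SE 0.0513, edgeR adjusted p = 0.505). FOSB, another AP-1 subunit, named after its values were seen, had the highest log2 fold change of that list at 0.99 (edgeR adjusted p = 0.512). Its level was 2.48 ± 0.933 CPM in LDL and 1.25 ± 0.159 CPM in control samples (SD, n = 4 each). The groups overlapped, with LDL sample 4 at 1.32 CPM and the controls at 1.07 to 1.42 CPM. The other AP-1 subunits of the list had log2 fold changes of 0.12 (JUN), 0.12 (FOSL1), 0.0020 (JUNB), -0.018 (FOS) and -0.045 (FOSL2).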

How the data were processed

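The authors deposited a table of gene counts and a table of FPKM values for 22554 features in 8 samples. Per the submitters' processing notes, the tools were HISAT2, featureCounts and DESeq2 and the build was GRCh38, with no roles stated; annotation and counting options were not stated. The deposited counts are whole numbers, and 55.17% of values from 1 to 20 were even, for which the cause was not tested. How the authors counted is not stated, so the deposited values were handled as estimated counts, with no rounding needed. The deposited FPKM values, which the authors normalized for length and sequencing depth, served for levels between genes and for alternatives. They do not follow the counts by a fixed length per gene. ADAM32 had 9 counts and 0.0905 FPKM in LDL sample 1, but 3 counts and 0.116 FPKM in LDL sample 2. Group differences in FPKM can therefore depart from those in counts, and the cause was not tested. Features were tested with edgeR 4.0.16 in R 4.3.3, using TMM normalization, the default filterByExpr, robust quasi-likelihood dispersion and group as the only term, after checks on simulated data. CPM values use the TMM factors. Coordinates are from GENCODE 29 on GRCh38, matched by symbol. Alternatives were DESeq2 1.42.0, limma 3.58.1 on log2(FPKM + 1) and log2(FPKM + 0.1), other filters and size factors, a replicate block, and leaving out each sample. The genes, lists and naming rule were chosen with earlier results of these data known. The rule took the 10 highest FPKM, the 8 lowest p, any called or non-overlapping genes and a fixed list, 18 in all of which 17 were tested; other genes, such as MMP13, were named after their values were seen. No protein sequences were used, so ADAM genes were not split by active site.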

Additional observations from a re-analysis of the deposited data

Results flagged for a closer look

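In 4 of 36 sample groups, over 18 tested genes in LDL and control samples, a single sample stood apart from the other 3 by Dixon's 95% criterion, where chance flags about 1.8. ADAM15 was at 90.5 CPM in LDL sample 1, against 82.2 to 83.2 CPM in the other LDL samples. MMP1 was at 345 CPM in control sample 2, against 264 to 272 CPM in the other controls. ADAM17 was at 38.9 CPM in control sample 4, against 42.1 to 42.5 CPM in the other controls. ADAMTS14 was at 1.7 CPM in control sample 3, against 2.92 to 3.15 CPM in the other controls.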

How the results depend on the processing

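No gene of the set was called under any of the 16 alternatives run. The 17 tested genes of the naming rule and MMP13, 18 in all, gave 281 values, of which 10 turned in sign, each when 1 sample was left out and none past the threshold. Omitting single samples put the log2 fold change between -0.338 and 0.196 for MMP7 and between -0.331 and 0.202 for MMP13, turning it without LDL sample 4 or control sample 2. It lay between -0.00776 and 0.0924 for MMP2 (turning without LDL sample 1), between -0.0536 and 0.0452 for ADAM17 (without LDL sample 4 or control sample 2) and between -0.212 and 0.211 for MMP9 (without LDL sample 2 or control sample 2 or 3). The lowest adjusted p of these values was 0.0876. Over all features the 10 calls became 47 with DESeq2, 5 with log2(FPKM + 0.1) at a mean of at least 0.5 FPKM, 2 with log2(FPKM + 1) and no minimum, and 2 with the replicate block, where the lowest adjusted p of the set was 0.993. Omitting single samples gave 2 to 149 calls, with 149, 3, 6 and 26 without LDL samples 1 to 4 and 3, 6, 2 and 5 without control samples 1 to 4. The cause was not tested. The 43 expressed genes were 24 at a mean of at least 1 FPKM, a stricter limit. Deviations from the group means correlated between -0.101 and 0.0602 in same-numbered samples, so no pairing was seen. The labels do not say whether such samples were handled together, and these correlations cannot exclude it. Genes such as MMP9 and TIMP3 are limited by depth, with at most 30 and 147 counts in any library.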
